A study of Mus musculus with 16 samples.

Results

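The comparison set PTHrP1-36-treated against untreated Pthrp-/- trabecular osteoblasts (TOs) at 0g, on 2 arrays each. These 4 arrays belong to a series of 16, in which Pthrp-/- and Pthrp+/+ TOs were each kept at 0g or 1g, with or without the peptide, on 2 arrays per condition. Every gene with a detectable probe was a member of the comparison, with no selection on its values: 15279 of 25697 probes, which stand for 10438 genes. Both groups were C57BL/6 cells taken 1 day before birth from fetuses with a global deletion of Pthrp, grown out of trabecular bone, passaged, attached to microcarriers and kept for 6 days in rotating vessels that simulate weightlessness, in medium with ascorbate, glycerophosphate and dexamethasone. Treated cells received 10 nM PTHrP1-36 for 2 h per day followed by fresh medium, and untreated cells received a daily change of medium. By the methods, a treated and an untreated chamber turned on the same axis, but no source names the replicates that shared a run. The methods speak of duplicate experiments and not of separate animals, so that p-values reflect how far these 2 cultures per condition varied, which may be technical. The labels give both tibia and femur as the bone of origin.

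PTHrP is a secreted peptide whose N-terminal part activates the type 1 PTH/PTHrP receptor, a G protein-coupled receptor that raises cAMP and also engages phospholipase C. In bone, the receptor sits on osteoblasts and their precursors, and short daily pulses of its ligands are known to favour bone formation, whereas continuous exposure favours resorption. Cells without Pthrp lack their own ligand but can still respond to added peptide. Pthlh, the gene that encodes PTHrP, was not analysed here because no probe carried its symbol, so the deletion was not checked on these arrays.

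Of the osteoblast markers, Sp7, Col1a1, Sparc and Bglap were detected on all 4 arrays. Alpl was detected on 2 of them, and Ibsp, a late mineralization marker, on none. Between 12161 and 12858 probes were detected per array. Untreated replicate 1 stood apart from the other 3 arrays: it had the fewest detected probes, and it correlated at 0.989 with untreated replicate 2, the lowest value among the 8 replicate pairs of the series (the others lay between 0.993 and 0.997), while untreated replicate 2 correlated at 0.993 with both treated arrays. Values without untreated replicate 1 are therefore given beside the main results. The differences of untreated TOs between 0g and 1g correlated negatively between Pthrp-/- and Pthrp+/+ cells (Pearson's r = -0.34 across probes, which are not independent replicates). From 1g to 0g, Prl2c3 changed on the log2 scale by 3.79 in untreated Pthrp+/+ and by -2.94 in untreated Pthrp-/- TOs. Rbm3 changed by -1.86 and 1.98, while Acta1 rose in both (1.14 and 1.22). The reason was not tested. Every comparison between 0g and 1g, and between genotypes at 0g, takes the gravity labels as given.

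With PTHrP1-36, 135 genes were higher (1.29% of those tested) and 129 were lower (1.24%) at a Benjamini-Hochberg adjusted p under 0.05, from a limma fit over all 16 arrays. Measured by the probe with the highest mean, 116 of the higher genes differed by 0.42 to 1.73 on the log2 scale, with a median of 0.69. The lower ones, 108 by that probe, had differences of 0.41 to 2.26 in size, with a median of 0.62. Among these, 17 higher and 7 lower genes changed more than 2-fold, and the treated and untreated arrays overlapped for none of them. Across all genes, the groups did not overlap for 42.9%. The median log2 fold change of all genes was 0. At the study's thresholds for the treatment, a fold change over 1.5 or under 0.65 with an unadjusted p under 0.05, 202 genes (1.94%) were higher and 135 (1.29%) were lower. The plot of fold change by level shows that the changes covered the range of signal, from genes near the detection level to strongly expressed ones.

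**Figure D1:**
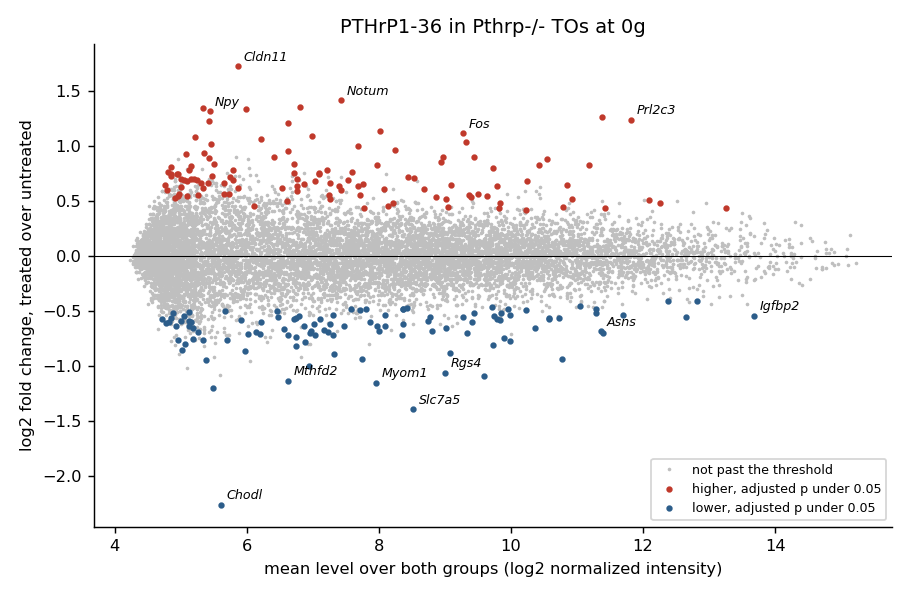
Log2 fold change (treated over untreated Pthrp-/- TOs at 0g, vertical axis) against the mean log2 normalized intensity of both groups (horizontal axis), for the highest-mean probe of each of 10438 genes. Red points are the 116 genes higher and blue points the 108 genes lower at an adjusted p under 0.05, and Cldn11 (1.73) and Chodl (-2.26) lie at the 2 ends.

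The number of calls depended on single arrays. Without untreated replicate 1, 44 genes were higher and 37 lower, of which 38 and 28 were also called with all arrays. Without untreated replicate 2, 702 were higher and 646 lower. Leaving out treated replicate 1 gave 39 and 15 genes, and leaving out treated replicate 2 gave 27 and 17. In these fits the lone array of a group was assumed to vary like the other groups. When limma was fitted to the 4 arrays alone, Chodl was the only gene called (lower), with 1248 genes at an unadjusted p under 0.05, so the calls above rest on a spread estimated from all 8 conditions. The difference between replicates had an SD across probes of 0.35 in the untreated group, against 0.18 to 0.28 in the other groups. A shared spread can therefore understate the variation in this comparison. With each of the 4 arrays left out in turn, 20 genes stayed higher: Aldh3a1, Cldn11, Cxcl1, Fos, Hpgd, Lrrc15, Ly6c1, Lyz1, Notum, Npy, Npy6r, Olfml1, Pcolce2, Prl2c3, Prl2c4, Rarb, Selenbp1, Serpinb2, Tmem100 and Tnfaip8. Those that stayed lower were 8 in number: Asns, Chodl, Lpl, Mthfd2, Myom1, Rbm38, Rgs4 and Slc7a5. Every other gene called with all arrays lost its call in at least 1 of these 4 fits.

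**Figure D2:**
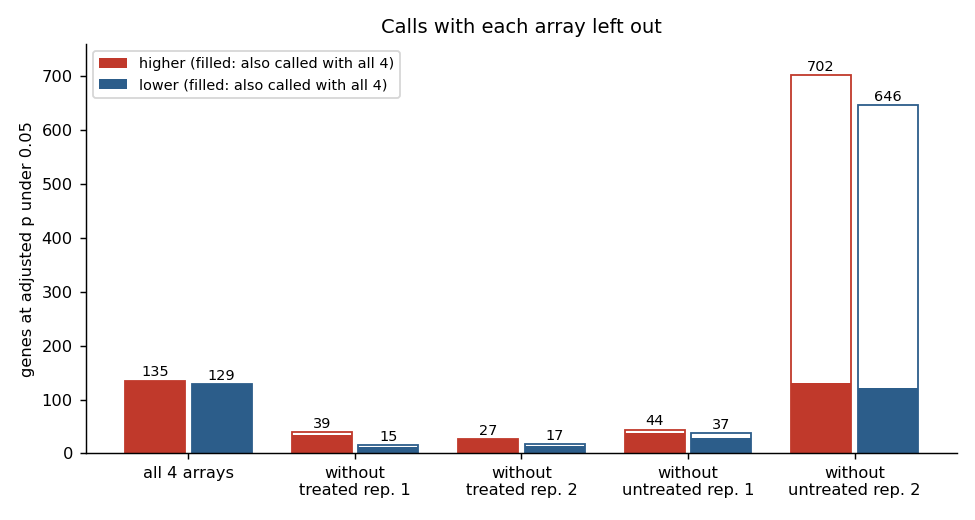
Genes at an adjusted p under 0.05 (vertical axis) with all 4 arrays and with each left out, higher with PTHrP1-36 in red and lower in blue; the filled part of a bar was also called with all 4. Counts ranged from 27 to 702 higher genes and from 15 to 646 lower genes.

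Some components of the receptor pathway passed the test, and most did not. Pth1r, the receptor itself, had normalized intensities of 96.7 and 95.2 in treated cells, against 142 and 87.6 in untreated cells. The groups overlapped and the difference did not pass (log2 fold change -0.21 ± 0.20 SE, adjusted p = 0.64). Its other tested probes pointed both ways (0.39 and -0.36) and did not pass either. Of 38 tested genes of PTH receptor signalling and the cAMP response, 2 were higher (Fos and Ramp3) and 3 lower (Mmp13, Per1 and Ramp1), with a median log2 fold change of 0, and without untreated replicate 1, 2 were higher and 1 lower. The counts of this and the following lists are to be read against the 1.29% of all genes that were higher and the 1.24% that were lower. G protein and cAMP components such as Gnas (1460 and 1430 in treated cells, against 1700 and 1370 in untreated cells) and Prkaca (1260 and 1170, against 1230 and 1170 in untreated cells) overlapped between the groups. Nr4a2, an orphan nuclear receptor that cAMP induces early, had 85.9 and 81.3 in treated cells, against 71.8 and 75.1 in untreated cells, and did not pass (adjusted p = 0.40).

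Fos, an AP-1 transcription factor gene induced within minutes by PTH receptor signalling in osteoblasts, rose to 926 and 904 in treated cells, against 354 and 504 in untreated cells. Both treated arrays were well above both untreated ones, and the rise was 1.12 ± 0.15 on the log2 scale (limma, adjusted p = 0.00225), or 0.86 without untreated replicate 1 (adjusted p = 0.0146). Ier2, another immediate early gene, had 56.5 and 69.4 in treated cells, against 27.5 and 34.8 in untreated cells, where 1 of the 2 arrays was above background (log2 fold change 1.02 ± 0.22, adjusted p = 0.037, and 0.19 without untreated replicate 1). These were the 2 of 19 tested immediate early genes that passed. Egr1 was at 6540 and 6370 in treated cells, against 6380 and 6280 in untreated cells, and Junb, Jun and Fosl1 overlapped between the groups. Of the receptor activity-modifying proteins, 2 rose and 1 fell. Ramp3, which can associate with class B receptors, rose to 116 and 114 in treated cells, against 77.6 and 71.5 in untreated cells (log2 fold change 0.62 ± 0.12, adjusted p = 0.0203), and its other 2 probes gave 0.78 and 0.60. Ramp2, the partner of the calcitonin receptor-like receptor for adrenomedullin, rose to 281 and 264 in treated cells, against 168 and 177 in untreated cells (log2 fold change 0.66 ± 0.10, adjusted p = 0.00597). It was chosen after its values were seen. Ramp1, the partner of the calcitonin receptor-like receptor for CGRP, fell to 257 and 254 in treated cells, against 406 and 437 in untreated cells (log2 fold change -0.72 ± 0.12, adjusted p = 0.00855). Without untreated replicate 1, Ramp1 and Ramp2 kept their calls (adjusted p of 0.0379 and 0.0395), while the probe of Ramp3 with the highest mean had an adjusted p of 0.0666.

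Several genes of the amino acid response fell. ATF4 is a transcription factor of the integrated stress response that osteoblasts need for amino acid import and collagen synthesis, and its targets include amino acid transporters, synthases and aminoacyl-tRNA synthetases. Of 23 tested genes of this list, 8 were lower (Aars, Asns, Atf4, Atf5, Chac1, Mthfd2, Phgdh and Slc7a5) and 0 were higher, against 1.24% of all genes lower. Like the others, this list was chosen with earlier results of these data known, so its share may partly follow from the choice. The median log2 fold change of the list was -0.48, against 0 for all genes. In 20 of the 23 genes both treated arrays lay below both untreated ones, against 20.9% of all genes. Without untreated replicate 1, 5 of the list were lower and its median was -0.39, and without either treated array or untreated replicate 2 the count was 3 to 12.

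Slc7a5, the light chain of the large neutral amino acid transporter, fell to 229 and 225 in treated cells, against 709 and 503 in untreated cells (log2 fold change -1.39 ± 0.16, adjusted p = 0.000993). Mthfd2, a mitochondrial enzyme of one-carbon metabolism, fell to 64.1 and 69.6 in treated cells, against 134 and 159 in untreated cells (-1.13 ± 0.14, adjusted p = 0.00143). For both genes the treated arrays lay close together and well below the lower untreated array. Asns, asparagine synthetase, had 2070 and 2090 in treated cells, against 3310 and 3340 in untreated cells (-0.68 ± 0.09, adjusted p = 0.00186). Its other 2 tested probes gave -0.46 and -0.58, of which the second passed. Aars, alanyl-tRNA synthetase, was at 2050 and 2170 in treated cells, against 3470 and 3360 in untreated cells (-0.70 ± 0.10, adjusted p = 0.0056). Chac1, a glutathione-degrading enzyme, was at 729 and 740 in treated cells, against 1090 and 1390 in untreated cells (-0.74 ± 0.11, adjusted p = 0.00634). Atf4 itself was at 375 and 352 in treated cells, against 523 and 540 in untreated cells (-0.55 ± 0.11, adjusted p = 0.0245). Without untreated replicate 1, Slc7a5, Mthfd2, Asns, Aars and Chac1 kept their calls (adjusted p of 0.00262 to 0.0388), while Atf4 had an adjusted p of 0.0851, Atf5 of 0.0892 and Phgdh of 0.146. Phgdh, which opens serine synthesis, had 228 and 225 in treated cells, against 332 and 323 in untreated cells, and Atf5, a related factor, had 2250 and 1990 in treated cells, against 2920 and 2990 in untreated cells.

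Other members had values on the same side without passing, with few exceptions. Ddit3, the gene of the stress factor CHOP, had 759 and 719 in treated cells, against 1570 and 968 in untreated cells (adjusted p = 0.0714), with untreated replicate 1 far above the other 3 arrays. Slc3a2, the heavy chain partner of Slc7a5, had 60.7 and 72.9 in treated cells, against 42.1 and 87.6 in untreated cells, and overlapped. Of 17 tested genes of the unfolded protein response, 0 passed (limma), with a median of -0.13 and 5 at an unadjusted p under 0.05. The random variance model, the kind of test the methods name, called 0 of them. In 10 of the 17 genes both treated arrays lay below both untreated ones (20.9% of all genes), and in 1 above (22% of all genes). Chosen after its values were seen, Aldh18a1, which makes the precursor of proline, fell to 368 and 341 in treated cells, against 651 and 493 in untreated cells (-0.68 ± 0.13, adjusted p = 0.0202, and 0.108 without untreated replicate 1).

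**Figure D3:**
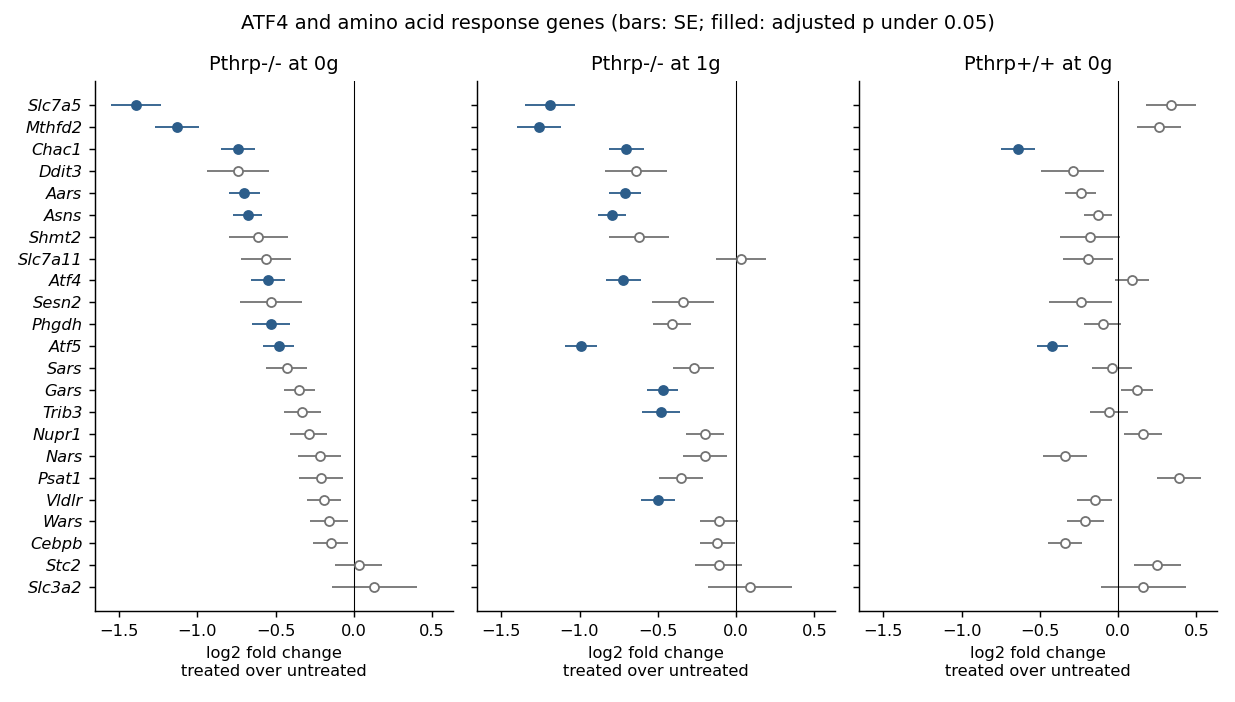
Log2 fold change with its SE (horizontal axis, treated over untreated) of the 23 tested ATF4 and amino acid response genes in Pthrp-/- TOs at 0g, Pthrp-/- TOs at 1g and Pthrp+/+ TOs at 0g; filled points passed an adjusted p under 0.05. In Pthrp-/- TOs 8 genes passed as lower at 0g and 10 at 1g, and in Pthrp+/+ TOs at 0g 2 passed as lower (Chac1 and Atf5).

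The promoters of some of these genes hold the C/EBP-ATF response element, TGATGNAA, to which ATF4 dimers are known to bind. It was searched on both strands of the 250 bases before the start site in RefSeq's promoter windows (GRCm38.p6), where 21 of the 24 list genes and 7 of the 8 called genes had an entry. It was present in 3 of those 7 called genes (Aars, Asns and Chac1), in 7 of the 21 list genes and in 2.84% of the 8453 tested genes with an entry. Among the 12 largest falls, of which 9 had an entry, Chchd10 held it. The list was drawn up as ATF4 and amino acid response genes, so its share against all genes is not a result of these arrays. The windows are printed because their genes fell with PTHrP1-36 and carry the element, which is in capitals (as TTGCATCA where it lies on the opposite strand); a match is a description of letters, not a measured binding site.
Asns, chr6:7693210-7693459, minus strand: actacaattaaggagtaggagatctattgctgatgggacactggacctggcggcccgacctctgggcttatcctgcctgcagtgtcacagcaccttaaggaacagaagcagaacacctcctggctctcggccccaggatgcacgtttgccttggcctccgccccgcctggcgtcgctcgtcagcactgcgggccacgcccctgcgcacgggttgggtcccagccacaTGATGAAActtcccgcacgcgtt
Aars, chr8:111033592-111033841, plus strand: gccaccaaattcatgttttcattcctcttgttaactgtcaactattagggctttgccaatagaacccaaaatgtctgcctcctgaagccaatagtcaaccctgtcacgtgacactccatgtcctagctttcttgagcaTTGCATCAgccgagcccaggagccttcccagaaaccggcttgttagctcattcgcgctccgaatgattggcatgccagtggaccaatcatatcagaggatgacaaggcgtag
Chac1, chr2:119350992-119351241, plus strand: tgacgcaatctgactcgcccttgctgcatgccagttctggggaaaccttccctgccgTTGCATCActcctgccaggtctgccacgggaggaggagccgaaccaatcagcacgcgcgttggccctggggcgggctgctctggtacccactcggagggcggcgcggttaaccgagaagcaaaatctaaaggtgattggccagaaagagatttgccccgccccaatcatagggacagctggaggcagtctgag
Chchd10, chr10:75932880-75933129, plus strand: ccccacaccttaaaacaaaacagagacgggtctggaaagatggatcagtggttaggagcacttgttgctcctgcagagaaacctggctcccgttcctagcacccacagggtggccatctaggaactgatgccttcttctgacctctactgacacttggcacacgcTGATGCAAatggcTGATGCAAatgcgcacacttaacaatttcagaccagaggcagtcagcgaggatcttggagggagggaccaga

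The element lay 23 to 16 bases before the start of Asns, 112 to 105 before Aars and 193 to 186 before Chac1. Chchd10, a mitochondrial intermembrane-space protein, held 2 copies, and its level was 158 and 154 in treated cells, against 341 and 258 in untreated cells (-0.93 ± 0.18, adjusted p = 0.0205, and 0.13 without untreated replicate 1). The full cAMP response element, TGACGTCA, was present in 2.82% of the tested genes with an entry. Of the 12 largest rises, 8 had an entry and none of these held it, while among the largest falls Scg2 did. Among the other named genes with an entry Mcm5, which rose, held it 99 to 92 bases before its start.

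The same list was examined where the samples differ from these. In Pthrp-/- TOs at 1g, where 1.72% of all genes were lower, 10 of the 23 were lower with PTHrP1-36 and the median was -0.47. No gene of the list differed in its effect between 0g and 1g at an adjusted p under 0.05. In Pthrp+/+ TOs at 0g, where 3.61% of all genes were lower, 2 of the list were lower and 1 higher, with a median of -0.13. The difference between the genotypes at 0g was itself past the threshold for Slc7a5 (-1.73, adjusted p = 0.00225), Mthfd2 (-1.39, adjusted p = 0.00391) and Asns (-0.55, adjusted p = 0.0397), while for Chac1 it was -0.10 (adjusted p = 0.79). In Pthrp+/+ TOs at 0g Slc7a5 changed by 0.34 and Mthfd2 by 0.26, neither past the threshold.

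The genes that changed most are shown in the plot of values by array. Chodl, a membrane C-type lectin, had the largest fall. It was at 21.5 and 23 in treated cells, below detection on both arrays, and at 108 and 105 in untreated cells, so that it was at least 3.47-fold lower with PTHrP1-36 (measured log2 fold change -2.26 ± 0.13, adjusted p = 3.33e-06). Its 2 untreated arrays were close to each other. At 1g it also fell, to a mean of 47.0 in treated against 139 in untreated Pthrp-/- cells, and in Pthrp+/+ TOs at 0g its means were 22 and 21.5 in treated and untreated cells.

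Myom1, a protein of the sarcomeric M-band, fell to 168 and 165 in treated cells, against 328 and 417 in untreated cells (-1.15 ± 0.12, adjusted p = 0.000471). Rgs4, which shortens G protein signalling of the Gq and Gi classes, fell to 335 and 379 in treated cells, against 757 and 725 in untreated cells (-1.06 ± 0.11, adjusted p = 0.000447). It also fell in Pthrp-/- TOs at 1g (-0.80) and in Pthrp+/+ TOs at 0g (-0.59). Col10a1, the collagen of hypertrophic cartilage, fell to 91.9 and 83.2 in treated cells, against 172 and 177 in untreated cells (-1.0 ± 0.15, adjusted p = 0.00607, and 0.0395 without untreated replicate 1). Rbm38, an RNA-binding p53 target, was at 27.9 and 31.4 in treated cells, against 71.5 and 64.9 in untreated cells. Its other tested probe gave -0.07 and did not pass, so its probes disagree. Scg2, a secretory granule protein with the cAMP response element in its promoter window, was at 30.0 in both treated arrays, below detection, and at 41.8 and 79.4 in untreated cells (at least 1.88-fold lower, adjusted p = 0.0374). Plod2, which hydroxylates collagen lysines, had 132 and 105 in treated cells, against 291 and 162 in untreated cells. Its difference was -0.46, with an adjusted p of 0.165, when untreated replicate 1 was left out. Prf1, the gene of perforin, and Erich5 were also among the 12 largest falls, with adjusted p of 0.104 and 0.0953 without that array.

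The largest rise was that of Cldn11, a tight junction claudin, at 115 and 97.1 in treated cells, against 25.5 and 40.1 in untreated cells, where 1 array was above background (1.73 ± 0.19, adjusted p = 0.000832). Notum, an enzyme that removes the lipid from Wnt proteins and so inactivates them, rose to 270 and 292 in treated cells, against 111 and 99.0 in untreated cells (1.42 ± 0.14, adjusted p = 0.000373). Both kept their calls without untreated replicate 1. Olfml1, an extracellular olfactomedin-domain protein, rose to 165 and 196 in treated cells, against 68.2 and 71.8 in untreated cells (1.36 ± 0.14, adjusted p = 0.000524). Selenbp1, a selenium-binding protein, rose to 107 and 94.5 in treated cells, against 35.6 and 44.5 in untreated cells (1.34 ± 0.12, adjusted p = 0.000251). Npy and Npy6r, a neuropeptide and a receptor of its family, were not detected on either untreated array. Npy was at 66.0 and 71.1 in treated cells, against 28.6 and 26.4 in untreated cells, at least 2.17-fold higher (adjusted p = 5.5e-05). Npy6r was at 77.9 and 54.0 in treated cells, against 22.8 and 28.3 in untreated cells, at least 2.05-fold higher (adjusted p = 0.00163). Serpinb2, an inhibitor of plasminogen activators, rose to 158 and 143 in treated cells, against 65.4 and 64.7 in untreated cells (1.21 ± 0.16, adjusted p = 0.00193). Gcnt1, a glycosyltransferase, and Minar2 completed the 12 largest rises with Fos, Prl2c3 and Prl2c4, and Minar2 had an adjusted p of 0.067 without untreated replicate 1.

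**Figure D4:**
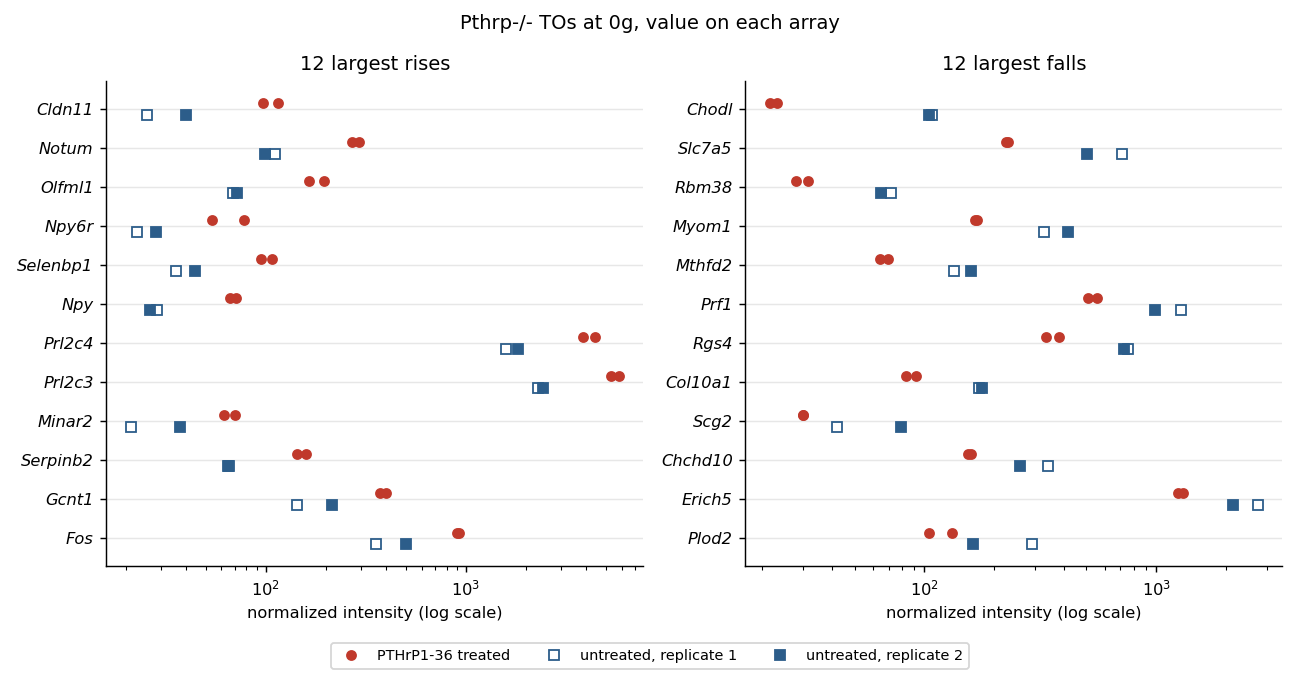
Normalized intensity (horizontal axis, log scale) of the 12 largest rises and 12 largest falls on each array of Pthrp-/- TOs at 0g; red circles are the 2 treated arrays, open and filled blue squares untreated replicates 1 and 2. The genes were chosen among those that passed without overlap, so that the absence of overlap follows from the choice. Prl2c3 had the highest values of the rises, up to 5820.

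The Prl2c genes encode proliferins, secreted relatives of prolactin that were first described in growing mouse fibroblasts. Of 4 tested members, 3 were higher (Prl2c1, Prl2c3 and Prl2c4). Prl2c3 was at 5820 and 5340 in treated cells, against 2290 and 2430 in untreated cells (1.24 ± 0.11, adjusted p = 0.000215). Prl2c4 was at 4420 and 3830 in treated cells, against 1590 and 1830 in untreated cells (1.27 ± 0.12, adjusted p = 0.000373). Both kept their calls with each of the 4 arrays left out. Prl2c1 was near the detection level, at 46.1 and 47.4 in treated cells, and undetected in untreated cells at 21.6 and 27.8, which is at least 1.48-fold higher (adjusted p = 0.0352, and 0.183 without untreated replicate 1). These genes are near-identical copies, so their probes may report the same transcripts and are not independent. In Pthrp+/+ TOs at 0g the peptide had the opposite effect, -0.93 for Prl2c3 and -0.95 for Prl2c4, and the difference between genotypes passed for both (2.17 with an adjusted p of 4.91e-05, and 2.22 with 6.65e-05). In Pthrp-/- TOs at 1g the effects were -0.05 and 0.01, and the difference between 0g and 1g passed as well (1.29 and 1.26). Pthrp+/+ TOs at 1g showed a rise with the peptide, of 1.02 for Prl2c3 and 1.03 for Prl2c4 (limma, adjusted p of 0.000685 and 0.00124). Prl2c1 had 0.27 there and did not pass (adjusted p = 0.711). The rise of Prl2c3 and Prl2c4 was therefore not confined to Pthrp-/- TOs at 0g.

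Secreted regulators of Wnt signalling included 2 of 15 tested antagonists that rose, Notum and Sfrp2, and none that fell. Sfrp2, which binds Wnt proteins, was at 114 and 102 in treated cells, against 41.8 and 63.6 in untreated cells (1.07 ± 0.18, adjusted p = 0.0106, and 0.0712 without untreated replicate 1). Wnt2 was at 511 and 438 in treated cells, against 289 and 289 in untreated cells (0.71 ± 0.13, adjusted p = 0.0149, and 0.0768 without untreated replicate 1), and was the 1 of 22 tested Wnt pathway genes that passed. Axin2, a feedback target of the pathway, had 143 and 145 in treated cells, against 107 and 104 in untreated cells, and did not pass (adjusted p = 0.18). Dkk1 overlapped between the groups near the detection level.

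Osteoblast and matrix genes changed in small numbers. Of 20 tested genes of osteoblast differentiation and mineralization, Atf4 and Tnfrsf11b were lower, none was higher, and the median was -0.09. Tnfrsf11b, the gene of osteoprotegerin, the decoy receptor that blocks RANKL, fell to 5440 and 5210 in treated cells, against 7410 and 8210 in untreated cells (-0.55 ± 0.12, adjusted p = 0.0382, and 0.0864 without untreated replicate 1). In Pthrp+/+ TOs at 0g it also fell (-1.11). Col1a1 had 2560 and 2390 in treated cells, against 3380 and 2140 in untreated cells, and Sp7 had 200 and 197, against 199 and 174 in untreated cells, both with overlapping arrays. None of 15 fibrillar collagen genes passed by limma (4 at an unadjusted p under 0.05, and 0 by the random variance model), with a median of 0.03. The proteoglycans Lum and Ogn rose, Lum to 2310 and 2320 in treated cells, against 1630 and 1600 in untreated cells (0.52 ± 0.12, adjusted p = 0.0478). Ogn was at 5830 and 5670 in treated cells, against 3930 and 4340 in untreated cells (0.48 ± 0.11, adjusted p = 0.0429). The other 2 tested probes of Ogn gave 1.13 and 0.44 and did not pass. Pcolce2, which enhances removal of the procollagen C-propeptide, rose to 665 and 713 in treated cells, against 384 and 353 in untreated cells (0.90 ± 0.11, adjusted p = 0.00143), as did its other probe (1.00). Pcolce2 kept its call without untreated replicate 1, where Lum and Ogn had adjusted p of 0.13 and 0.169.

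Of 19 tested genes of matrix metalloproteinases, ADAMTS proteases and their inhibitors, 3 were lower and 0 higher, against 1.24% and 1.29% of all genes. Mmp13, the collagenase that PTH induces in osteoblasts, fell to 215 and 190 in treated cells, against 346 and 282 in untreated cells (-0.63 ± 0.13, adjusted p = 0.024), while its other 2 probes gave 0.13 and -0.39 and did not pass. Adamts1 and Mmp16 fell by 0.67 and 0.54 on the log2 scale; the other probe of Adamts1 gave -0.21. None of the 3 passed without untreated replicate 1 (adjusted p of 0.0952 to 0.13).

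Among growth factor carriers, Igfbp6, which binds IGF-2 preferentially, rose to 1080 and 1160 in treated cells, against 591 and 698 in untreated cells (0.80 ± 0.12, adjusted p = 0.00494), and kept its call without untreated replicate 1. Igfbp2 fell to 10700 and 11200 in treated cells, against 16500 and 15400 in untreated cells (-0.54 ± 0.10, adjusted p = 0.0198), though its other probe gave -0.29 and did not pass. Igf2r, the receptor that clears IGF-2, fell to 774 and 783 in treated cells, against 1410 and 1240 in untreated cells (-0.77 ± 0.14, adjusted p = 0.018). Of 13 tested IGF family genes these were the 3 that passed. Bmp4 had 2030 and 2120 in treated cells, against 3200 and 2770 in untreated cells (-0.52 ± 0.10, adjusted p = 0.023), and was the 1 of 24 BMP pathway genes that passed. Igfbp2, Igf2r and Bmp4 had adjusted p of 0.0977 to 0.113 when untreated replicate 1 was left out.

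Contractile genes fell in 2 of 15 smooth muscle genes tested. Myocd, the coactivator of serum response factor that drives smooth muscle genes, fell to 84.5 and 97.0 in treated cells, against 151 and 159 in untreated cells (-0.78 ± 0.11, adjusted p = 0.00321, and 0.0166 without untreated replicate 1). Its other tested probe gave 0.56 and did not pass, so the 2 probes point opposite ways. Myh11, smooth muscle myosin, was at 87.1 and 75.8 in treated cells, against 159 and 129 in untreated cells (-0.82 ± 0.19, adjusted p = 0.0429, and 0.203 without untreated replicate 1). Acta2, an abundant member, did not pass and was at 34600 and 34100 in treated cells, against 37500 and 35300 in untreated cells (-0.08). Stmn2, a neuronal microtubule regulator also found in osteogenic cells, rose to 2300 and 2340 in treated cells, against 1300 and 1680 in untreated cells (0.65 ± 0.12, adjusted p = 0.0181). Bdnf, a neurotrophin, fell to 1020 and 999 in treated cells, against 1310 and 1530 in untreated cells (-0.49 ± 0.11, adjusted p = 0.0429). The other 2 tested probes of Bdnf gave -0.50 and -0.09 and did not pass. Without untreated replicate 1 the adjusted p was 0.0973 for Stmn2 and 0.0538 for Bdnf.

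Genes of cell division, survival and basic metabolism passed in few cases. Of 20 tested mitosis genes 0 passed (limma; 8 at an unadjusted p under 0.05, all higher, and 0 by the random variance model), with a median log2 fold change of 0.26. Of 32 S phase genes Mcm5 passed, at 329 and 335 in treated cells, against 207 and 228 in untreated cells (0.61 ± 0.11, adjusted p = 0.0164, and 0.0939 without untreated replicate 1). In Pthrp+/+ TOs at 0g 17 of the 20 mitosis genes were higher (5.37% of all genes were), with a median of 0.88, and the difference between genotypes passed for 9 of them. Clu, a secreted chaperone counted among survival genes, rose to 1500 and 1590 in treated cells, against 881 and 1050 in untreated cells (0.68 ± 0.10, adjusted p = 0.00607). Apaf1, the core of the apoptosome, fell to 708 and 713 in treated cells, against 1110 and 960 in untreated cells (-0.54 ± 0.12, adjusted p = 0.0358, and 0.161 without untreated replicate 1), while its other probe gave -0.17 and did not pass. They were the 1 of 11 and 1 of 17 tested survival and death genes that passed. Lpl, which releases fatty acids from lipoproteins, fell to 642 and 643 in treated cells, against 1100 and 1160 in untreated cells (-0.81 ± 0.11, adjusted p = 0.00238). Aldh3a1, an aldehyde dehydrogenase induced through the aryl hydrocarbon receptor, rose to 1990 and 2050 in treated cells, against 993 and 1210 in untreated cells (0.88 ± 0.12, adjusted p = 0.00312). None of 62 oxidative phosphorylation, 52 ribosomal protein, 28 proteasome or 17 heat shock genes passed by limma, with medians of 0.06, 0.07, 0.04 and 0. At an unadjusted p under 0.05 there were 6, 8, 3 and 1 of them, and the random variance model called 0 in each list.

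Macrophage markers were low. Of 28 on the array, 11 were detected on at least 1 of the 4 arrays. Of the defining markers, Adgre1, C1qa and Fcer1g were detected on none (in untreated Pthrp+/+ TOs at 0g they averaged 1530, 265 and 5580), Tyrobp on 1 and Lyz2 on all 4. Ptprc was also detected on none, but its probe averaged 24.1 in untreated Pthrp+/+ TOs at 0g too. The summed intensity of the list was 1620 and 1450 in treated cells, against 846 and 948 in untreated cells, and 98400 to 98600 in untreated Pthrp+/+ TOs at 0g. Of 26 tested, Lyz1, Lyz2 and Laptm5 were higher and none lower; Laptm5 had an adjusted p of 0.153 without untreated replicate 1. Lyz1 was at 1010 and 898 in treated cells, against 488 and 535 in untreated cells (0.90 ± 0.11, adjusted p = 0.0012), and Lyz2 at 201 and 171 in treated cells, against 70.9 and 107 in untreated cells (1.09 ± 0.16, adjusted p = 0.00515). These lysozyme genes are near-identical, and their other probes gave 0.04 and -0.09 for Lyz1 and 0.00 and 0.79 for Lyz2. The part of macrophages in the difference between genotypes was not tested. Some markers of other cell types were detected on all 4 arrays. Ctsk, a protease of osteoclasts, was at 8230 and 8500 in treated cells, against 8850 and 8150 in untreated cells, and Col2a1, the collagen of cartilage, at 300 and 290 in treated cells, against 366 and 297 in untreated cells. The other osteoclast markers, Acp5 and Calcr, were detected on none of the 4 arrays. Of the other cartilage markers, Sox9 was detected on all 4 and Acan on none. The summed adipocyte list was 2090 and 2280 in treated cells, against 2960 and 3410 in untreated cells. Of the adipocyte markers, Fabp4 was detected on none of the 4 arrays and Adipoq on 1. Lpl was the 1 of 9 tested genes of that list that passed, and the median log2 fold change of the list was -0.07. Of the chemokines, Cxcl1, which attracts neutrophils, rose to 651 and 680 in treated cells, against 371 and 363 in untreated cells (0.86 ± 0.11, adjusted p = 0.00238), and no other of 12 CXC or of 13 CC chemokine genes passed.

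The effect of PTHrP1-36 was also compared with its effect on the same genotype at 1g and on Pthrp+/+ TOs at 0g and at 1g, which share no arrays with the comparison. Of 207 genes higher at 1g in Pthrp-/- TOs (1.98%), 35 were also higher at 0g (16.9% of those, and 25.9% of the genes higher at 0g) and 1 was lower. Of 180 lower at 1g, 25 were lower at 0g (13.9%, and 19.4% of those lower at 0g) and 6 were higher. Of 561 genes higher in Pthrp+/+ TOs at 0g, 30 were higher here (5.35% of those, and 22.2% of the genes higher here) and 3 lower. Of 377 lower there, 22 were lower here (5.84%, and 17.1% of the genes lower here) and 7 higher. In Pthrp+/+ TOs at 1g 22 genes were higher, of which 6 were higher here (27.3%, and 4.44% of the genes higher here) and 0 lower. Of 61 lower in Pthrp+/+ TOs at 1g, 4 were lower here (6.56%, and 3.1% of the genes lower here) and 2 higher. Among all genes, 1.29% were higher here and 1.24% lower. Log2 fold changes correlated across 15279 probes at 0.27 with those of Pthrp-/- TOs at 1g. The values were 0.17 with those of Pthrp+/+ TOs at 0g and 0.16 with those of Pthrp+/+ TOs at 1g.

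In Pthrp-/- TOs, 80 genes (0.766%) had a treatment effect that differed between 0g and 1g at an adjusted p under 0.05, of which 49 (0.469%) had the higher fold change at 0g and 31 (0.297%) the lower. Cldn11, which rose at 0g, was at a mean of 23.2 in treated cells, not detected on either array, and of 31 in untreated cells at 1g, where 1 array was above background. The measured effects differed (adjusted p = 0.00383), but the size of the difference rests partly on background signal. Adh1 and Matn4 were lower at 1g (-1.20 and -1.27) and had 0.42 and 0.32 at 0g by these probes, neither past the threshold, while the other tested probe of Adh1 gave 0.61 at 0g and passed (adjusted p = 0.0371). On the other side stood Rbm3, a cold-inducible RNA-binding protein, which rose at 1g by 1.53 and was at 3280 and 3020 in treated cells, against 3580 and 3070 in untreated cells at 0g (-0.07), although its other tested probe gave 0.58 at 0g and did not pass (adjusted p = 0.239). Cxcl1 rose at 0g and fell at 1g (-0.48), a difference of 1.34 (adjusted p = 0.00337).

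Between genotypes at 0g, 247 genes (2.37%) differed in their treatment effect, with the higher fold change in Pthrp-/- TOs for 98 (0.939%) and the lower for 150 (1.44%), 1 gene having probes in both sets. Fos rose in Pthrp-/- TOs and fell in Pthrp+/+ TOs (-0.68), a difference of 1.80 (adjusted p = 0.000974). Fosb and the heat shock gene Hspa1a fell in Pthrp+/+ TOs (-1.83 and -1.58) and had 0.12 and 0.58 in Pthrp-/- TOs, neither past the threshold. Rbm3 and Fxyd6 rose in Pthrp+/+ TOs (1.76 and 0.92). Aif1 and Gpr183, which immune cells express, rose in Pthrp+/+ TOs (0.95 and 1.17), where the macrophage list was abundant. In Pthrp-/- TOs at 0g Aif1 was not detected on either treated array, and Gpr183 on none of the 4.

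**Figure D5:**
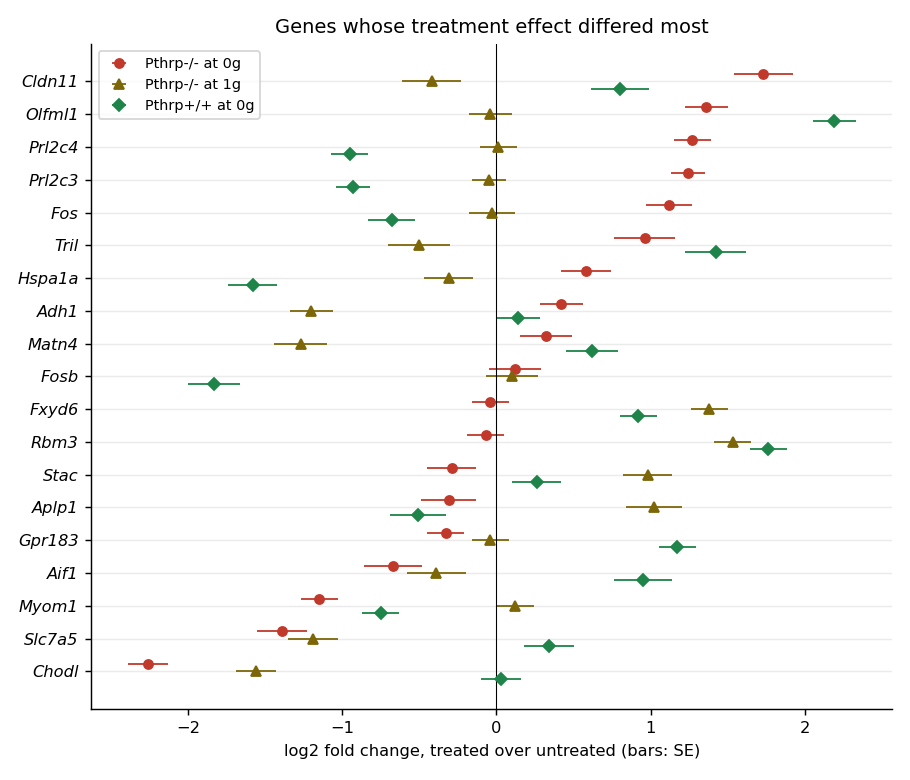
Log2 fold change with its SE (horizontal axis, treated over untreated) of the genes whose effect differed most between 0g and 1g in Pthrp-/- TOs or between genotypes at 0g; circles are Pthrp-/- TOs at 0g, triangles Pthrp-/- TOs at 1g and diamonds Pthrp+/+ TOs at 0g. Prl2c3, Prl2c4 and Fos lie on opposite sides of 0 in the 2 genotypes at 0g; points of Cldn11, Chodl, Aif1 and Gpr183 include conditions not detected on either array.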

How the data were processed

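RNA of each culture was measured on an Illumina Mouse Ref-8 array. For their own lists, the authors used lumi normalization in FlexArray and a random variance test after Wright and Simon. The main deposited table holds bead-summarised intensities on a linear scale, not normalized between arrays, and beside each a detection p-value that the authors' software set against the negative control beads. A second deposited table holds the authors' normalized log2 values, used here as an alternative.

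The neqc function of limma 3.58.1, with an offset of 16, corrected the background through the detection p-values, normalized by quantiles and took log2, and normalized intensities in the text are these values on the linear scale. Tests were run on probes that were detected (p under 0.05) on 2 or more of the 16 arrays. One fit of 8 condition means (lmFit, eBayes, 8 residual and 4.98 prior degrees of freedom) gave every comparison and the differences between comparisons, with p-values adjusted by Benjamini-Hochberg over all probes. A gene counted as called where any tested probe passed, and its printed values are those of the tested probe with the highest mean over all arrays, with standard errors from the fit. A fold against a group without detection on either array is a bound against the higher, per array, of the lowest detected signal and the probe's own. Replicate numbers did not pair the samples (replicate differences of treated and untreated cells correlated at 0.03 at 0g), so the fit was unpaired. The number of arrays limits the precision.

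The comparison and the gene lists were chosen with earlier results of these data known. Genes named are Pth1r, the 12 largest rises and falls that passed without overlap, up to 5 passing members of each list, or its highest-mean member where none passed, and the 5 largest differences of effect in each direction; others are given as list members or marked as chosen after their values were seen. The fit was tested on simulated data with the same spread in every condition and no deviating array. That run cannot show how the fit handles an array such as untreated replicate 1. Alternatives were no background correction, an offset of 50, cyclic loess, the authors' values, other filters, only the arrays compared, the authors' variance model, array weights, robust estimation with a trend, replicate blocks, 1 probe per gene, fold thresholds and each array left out. Of 25697 probes, 23978 had 1 gene symbol, 1719 none and 0 several. Promoter windows are RefSeq's, and figures were drawn with matplotlib.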

Additional observations from a re-analysis of the deposited data

Results flagged for a closer look

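The groups hold 2 arrays each, too few to test for a single outlying sample. The results given here had a treatment effect that differed between settings by a test of the difference itself (limma, adjusted p under 0.05). In Pthrp-/- TOs 80 genes differed between 0g and 1g. Among the named genes, the log2 fold change at 0g exceeded that at 1g by 2.14 for Cldn11, 1.62 for Adh1, 1.60 for Matn4, 1.46 for Tril, 1.40 for Olfml1, 1.38 for Gcnt1, 1.34 for Cxcl1 and 1.23 for Npy6r. It did so by 1.29 for Prl2c3, 1.26 for Prl2c4 and 1.14 for Fos, by 1.15 for Lyz2, 1.08 for Lyz1 and 0.84 for Laptm5, and by 1.03 for Ogn, 0.96 for Lum, 0.89 for Clu, 0.86 for Itgb4 and 0.78 for Pcolce2. The difference was -1.61 for Rbm3, -1.42 for Fxyd6, -1.33 for Aplp1, -1.28 for Myom1, -1.27 for Stac and -0.78 for Mmp16.

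Between Pthrp-/- and Pthrp+/+ TOs at 0g, 247 genes differed. The log2 fold change in Pthrp-/- TOs exceeded that in Pthrp+/+ TOs by 2.22 for Prl2c4, 2.17 for Prl2c3 and 1.57 for Prl2c1, and by 2.15 for Hspa1a, 1.95 for Fosb, 1.80 for Fos and 1.67 for Ier2. Neural and secreted genes followed, with 1.62 for Npy, 1.35 for Stmn2, 0.83 for Bdnf, 1.19 for Notum, 1.04 for Igfbp6 and 0.76 for Cxcl1. The other positive differences were 1.31 for Aldh3a1, 0.90 for Lyz1, 0.90 for Pcolce2, 0.87 for Itgb4, 0.85 for Hoxa11 and 0.81 for the histone gene H1f2. The difference was -1.73 for Slc7a5, -1.39 for Mthfd2 and -0.55 for Asns, and -2.29 for Chodl, -1.84 for Rbm3 and -0.96 for Fxyd6. It was -1.62 for Aif1 and -1.50 for Gpr183, which immune cells express, and -1.07 for Lpl, -0.93 for Mmp13, -0.91 for Bmp4, -0.86 for Cenpa, -0.82 for Mmp16, -0.78 for Apaf1 and -0.68 for Myocd. In Pthrp+/+ TOs at 1g, Stmn2 changed with the peptide by 0.78 and Bmp4 by -0.85 (limma, adjusted p of 0.00873 and 0.00124). The rise of Stmn2 and the fall of Bmp4 were therefore not confined to Pthrp-/- TOs. Npy (-0.08) and Notum (0.14) did not pass there.

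For 9 of these results at least 1 of the conditions compared was not detected on either array, so that the printed difference is a measured value that includes background signal, and no bound is given. These were Cldn11 and Npy6r between 0g and 1g, and Aif1, Chodl, Gpr183, Hoxa11, Myocd, Npy and Prl2c1 between genotypes.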

How the results depend on the processing

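With 2 arrays per group and dim signals for many genes, counts moved with most settings, and the causes were not tested. No called gene among the 114 named by rule changed direction under any alternative run. Other genes of the text were not followed through all of these. At an adjusted p under 0.05, 135 genes were higher and 129 lower. Higher and lower counts were 206 and 232 with an offset of 50, 220 and 245 with the authors' normalized values, 212 and 215 for probes detected on both arrays of a group, 203 and 207 with a trend and robust estimation, 30 and 15 with array weights, and 0 and 1 with only the 4 arrays in the fit (fewer samples). They were 208 lower without background correction, 88 higher with cyclic loess, and 65 lower with the fold thresholds added. Without 1 of the 4 arrays, 27 to 702 were higher and 15 to 646 lower. At the methods' thresholds, 202 genes were higher and 135 lower, against 48 and 33 without background correction, 48 and 35 with an offset of 50, 18 and 14 with the authors' normalized values and 115 higher with cyclic loess, and 173 to 632 higher and 157 to 516 lower without 1 array. The effect differed between 0g and 1g for 80 genes, and for 158 with the authors' values, 29 with array weights, 0 with only the 8 arrays compared (limma; 1230 at an unadjusted p under 0.05), and 19 to 332 without 1 array. It differed between genotypes for 247, and for 439 with an offset of 50, 513 with the authors' values, 98 with array weights, 29 with only the 8 arrays compared, and 58 to 872 without 1 array. Same-numbered replicates did not deviate together, and a replicate block within genotype and gravity gave 70 higher and 55 lower genes, 12 genes that differed between 0g and 1g and 116 that differed between genotypes, while a replicate block over all arrays gave 129 higher and 122 lower. The 114 named genes include some that did not pass with all arrays. Among those that did, 39 were no longer called with array weights and 20 with the replicate block within genotype and gravity. With only the 4 arrays 70 were no longer called, and Chodl alone stayed called.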
